A study of Drosophila melanogaster with 4 samples.

Results

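Regions enriched in dimethylated H3K36 (H3K36me2) on chromosome arm 3L, the left arm of the third chromosome of Drosophila melanogaster, were examined in adult heads. They were taken from the authors' replicate-set list as the rows that name 3L and enrichment. This gave 1172 of the 6411 enriched regions of the series, or 18.3%, and 2 further rows on 3L were named as depleted. The ChIP-seq (chromatin immunoprecipitation and sequencing) was done on head nuclei of wild-type Oregon-R flies, labelled as mixed adults, whose populations were raised in cages over cycles of 22 days. The labels give 2 ChIP samples and 2 input samples, with each input named as the background of a ChIP list, and no other genotype or treatment. They do not say whether the ChIP samples came from separate fly collections, nor do they give the sex of the flies or the number of heads pooled. Read depth cannot be given, because the lists hold positions and scores alone.

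In Drosophila, H3K36me2 is made by the methyltransferases Ash1, a Trithorax-group protein, and NSD (Mes-4), while Set2 adds the third methyl group along transcribed genes. Methylation of this lysine hinders Polycomb repressive complex methylation of H3K27, so broad H3K36-methylated domains and Polycomb-silenced domains tend to exclude each other. A head sample mixes neurons, glia, photoreceptors, fat body and muscle, and a region in the list is an average over those cells. Fewer cells carrying a mark and less of the mark per cell cannot be told apart in such a sample. Positions are those of release 5 of the genome, and the gene table at hand describes release 6, so regions are given by position and no gene is named.

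H3K36me2 regions covered a similar share of the arm in each ChIP sample. Of the 24.5 Mb of 3L, replicate 1 marked 5.75 Mb and replicate 2 marked 5.72 Mb, or 23.4% and 23.3% of the arm. The mean was 23.4% ± 0.087 (SD, n = 2). The list of the replicate set marked 6.32 Mb, or 25.8%. Replicate 1 had 1147 regions on 3L and replicate 2 had 1122. Regions were kilobases long. The shortest on 3L was 1315 bp in replicate 1, 1306 bp in replicate 2 and 1001 bp in the replicate set. Whether the region caller could report a region of single-nucleosome size is not stated in the sources used here. The median length of the regions was 3739 bp in the first ChIP sample and 3707 bp in the second. It was 3859 bp when the replicate-set list was used. The middle 90% of replicate-set regions lay between 1242 and 13941 bp.

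A small number of long regions held much of the marked sequence. Regions of 10 kb or longer numbered 107 and 114 in the replicates, where they held 28.0% and 29.7% of the covered length. In the replicate-set list they numbered 151, or 12.9% of the regions, against 13.1% for the whole series. The longest 10% of the regions held 29.4% ± 0.087 (SD, n = 2). Longer regions also carried higher scores, the authors' value per region with no stated scale. Across the regions of 3L the Spearman rho of length and score was 0.824 in replicate 1 and 0.815 in replicate 2. This describes regions of 1 list, which share their library, and how the score depends on length is not stated in the sources used here. By length class, the median score in replicate 1 was 0.454 up to 2000 bp, 0.806 from there to 4000 bp and 1.33 from there to 10000 bp. Above 10 kb it was 1.75. In replicate 2 the same classes had 0.420, 0.827, 1.28 and 1.66. The order of the classes was thus the same in both samples.

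**Figure D1:**
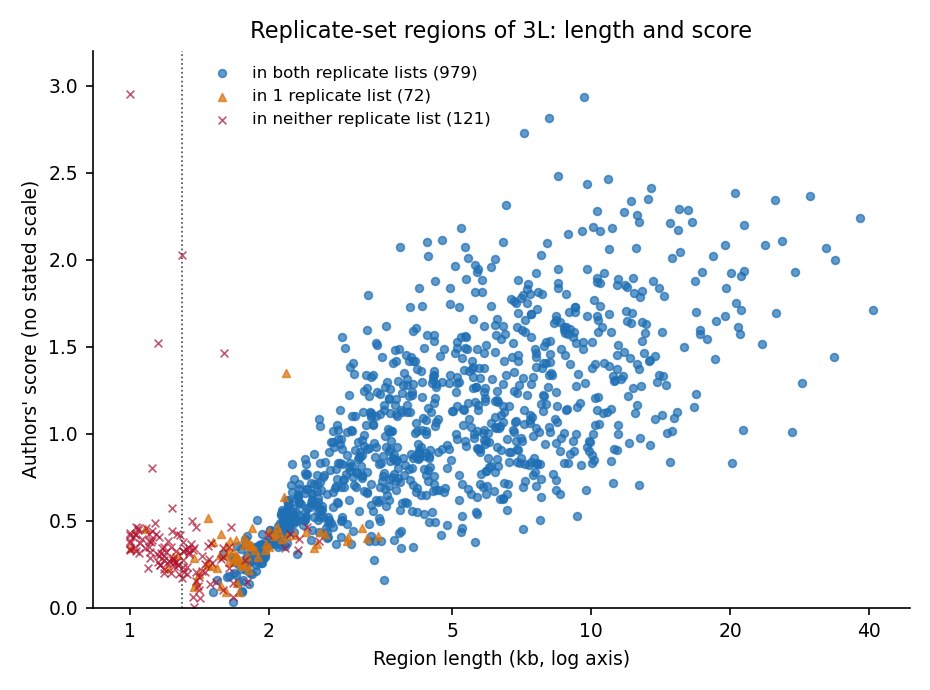
Each point is 1 of the 1172 replicate-set regions of 3L, with its length in kb on a log axis and the authors' score on the vertical axis, and colour and shape show in how many of the replicate lists it has an overlapping region. Points in both lists (979) rise to the right, most of the 121 in neither lie below a score of 0.5 at the short end, and the dotted line marks 1.3 kb, under which no replicate list has a region on 3L.

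The replicate lists marked the same places on 3L. Of the 1147 regions of replicate 1, 1099 overlapped a replicate 2 region by at least 1 bp, or 95.8% (Wilson 95% interval 94.5 to 96.8%), against 95.5% over the whole series. Of the 1122 of replicate 2, 1088 overlapped replicate 1, or 97.0% (95.8 to 97.8%), against 95.1% over the whole series. These intervals and those below cover counting error only. The covered length in common was 0.915 of the length covered in either list. In replicate 1, the 48 unshared regions were 1700 bp long at the median, against 3873 bp for the shared ones, and their median score was 0.529 against 1.01. In replicate 2, the 34 unshared regions had medians of 1528 bp and 0.457, and the shared ones 3807 bp and 0.997. Unshared regions were therefore the short, weak end of each list. The longest of replicate 1 was 3L 9054274 to 9057442 at 3.17 kb with a score of 0.531, and the longest of replicate 2 was 3L 1199871 to 1202804 at 2.93 kb with 0.610. Each lay wholly inside a replicate-set region. The next 4 of replicate 1 measured 2.20 to 2.90 kb and those of replicate 2 measured 1.82 to 2.28 kb.

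Most replicate-set regions of 3L were found in both ChIP samples. Of the 1172, 979 overlapped a region in both replicates, or 83.5% (Wilson 95% interval 81.3 to 85.5%), against 81.5% for the whole series. They made up 95.3% of the covered length. When 50% of a region's length had to be overlapped the share was 82.8%, against 80.3% for the whole series. A further 42 overlapped replicate 1 only (3.58%, against 3.77% in the series) and 30 overlapped replicate 2 only (2.56%, against 4.21%). Another 121 overlapped neither list (10.3%, against 10.5%). The shares in both lists, in replicate 1 only and in neither were near those of the whole series. That in replicate 2 only was lower than in the series, with a Wilson 95% interval on 3L of 1.80 to 3.63%. This was not particular to 3L, since the share was 2.38% on 3R. It was 3.91% on 2L and 6.85% on X, and the series value includes all of these arms. Median length was 1265 bp for regions in neither list and 4576 bp for regions in both, and the median scores were 0.327 and 0.971. Regions of 1300 bp or shorter numbered 72, or 6.14%, against 5.80% for the whole series. Of the 121 in neither list, 67 were that short (55.4%, against 51.8% in the series), and no replicate list had a region that short on 3L. The longest of the 121 was 3L 23683667 to 23686238, with 2.57 kb and a score of 0.384. The next 4 measured 2.23 to 2.43 kb, with scores between 0.334 and 0.464, and began at 3L 7617889, 13516972, 21530210 and 15332560. The lowest score of the list, 0.0025, belonged to 3L 17944121 to 17945497, 1.38 kb long and also in neither replicate.

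Among regions matched one to one, borders differed between replicates by well under the length of a region. Regions split, missing or unshared in a replicate are left out by that match, so these values do not describe them. On 3L, 825 replicate-set regions (70.4%) were matched one to one. Each overlapped exactly 1 region in each replicate, and those 2 regions overlapped each other and no further region of the lists. Their starts differed between replicates by a median of 84 bp and their ends by 79 bp, and 90% of starts differed by at most 349 bp. Across these regions the scores of the replicates had a Spearman rho of 0.967 (Pearson r 0.974), as a description of regions that share their libraries. Replicate 1 scored higher in 479 of the 825. The replicate medians were 1.02 and 1.01, and that of the replicate set was 0.952. In 730 of them the replicate-set region was longer than that of either replicate, and in 463 its score was lower than in either. A replicate-set score is thus not on the same footing as a replicate score, and levels are compared within 1 list.

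The lists also differed in how they joined neighbouring pieces. Of the 979 regions in both replicates, 828 (84.6%) were 1 piece in each list and had a median length of 4063 bp. The 62 that were in at least 2 pieces in both were longer, with a median of 9921 bp. The 27.3 kb region 3L 11050155 to 11077414 was in 3 pieces in each replicate, which covered 91.4% of it in replicate 1 and more than that in replicate 2. The 33.8 kb region 3L 16052957 to 16086756 was in 3 pieces in replicate 1 and 1 piece of 33.1 kb in replicate 2. The 20.2 kb region 3L 16590430 to 16610592 had 3 pieces in replicate 1 and 1 in replicate 2, with a low score for its length, 0.832. A region's length is in this sense a property of the list, while the covered sequence was nearly the same.

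The longest region on 3L was 3L 23226144 to 23266862, near the centromere, with 40.7 kb and a score of 1.71. It was 1 region of 40.3 kb with a score of 1.72 in replicate 2, and 2 regions in replicate 1, the longer of 33.4 kb. The second, 3L 22998126 to 23036307, measured 38.2 kb with a score of 2.24. It was a single region of 37.7 kb in replicate 1 and of 37.8 kb in replicate 2, with scores of 2.19 and 2.29. Their centres lay at 94.7% and 93.8% of the arm's length from the telomere end.

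The 8 that followed were spread along the arm. Again near the centromere lay 3L 22270314 to 22302562 at 32.2 kb and 3L 23119191 to 23145152 at 26.0 kb. The former was 1 region in replicate 1 and 3 in replicate 2, and the latter was 1 region in each. The region 3L 5127139 to 5160660, 33.5 kb long with a score of 1.44, stood almost alone, with 20.6 kb free before it and 176 kb after it. In the telomere part of the arm, 3L 3351261 to 3381053 had 29.8 kb and a score of 2.37, and 3L 2769153 to 2796821 had 27.7 kb and a score of 1.93. Each was 1 region in both replicates. The region 3L 7312621 to 7341240 had 28.6 kb but a score of 1.29, and the remaining pair were the 33.8 kb and 27.3 kb regions described above. For each of the 10 longest, replicate regions covered at least 91.4% of the length in both lists.

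The highest scores belonged mainly to regions longer than the median of the arm. Apart from 1 very short region taken up in the closing section, the highest score on the arm was 2.93 at 3L 8162094 to 8171722, 9.63 kb long. It scored 3.02 in replicate 1 and 2.88 in replicate 2, the maximum of the arm in each list. Next came 3L 18795716 to 18803803 (8.09 kb) with 2.81, which scored 2.99 and 2.82 in the replicates. The third was 3L 1592361 to 1599510 (7.15 kb) with 2.72, which scored 2.83 and 2.70. These 3 were single regions in each replicate, and in each the score of replicate 1 was the higher.

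The other 6 scored between 2.37 and 2.48. They were 3L 9470697 to 9479178 (8.48 kb), 3L 7885450 to 7896325 (10.9 kb), 3L 1716095 to 1725886 (9.79 kb), 3L 2718152 to 2731633 (13.5 kb), 3L 24067279 to 24087777 (20.5 kb) and the 29.8 kb region already described. Only the last was also among the 10 longest regions. The tops of the 2 rankings thus held mostly different places, although score and length rose together across the arm.

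Regions came in groups separated by much longer gaps. The median gap to the next region was 2862 bp and 2939 bp in the replicates. In the replicate-set list it was 2769 bp, with the middle 50% of gaps between 720 and 13176 bp. Gaps under 1 kb made up 27.5% and 27.0% of gaps in the replicates and 31.8% (372 of 1171) in the replicate-set list. Gaps of 20 kb or longer were 228 in number but held 80.6% of the unmarked sequence between regions. Spacing therefore ran from nearly touching regions to deserts of up to 406 kb.

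**Figure D2:**
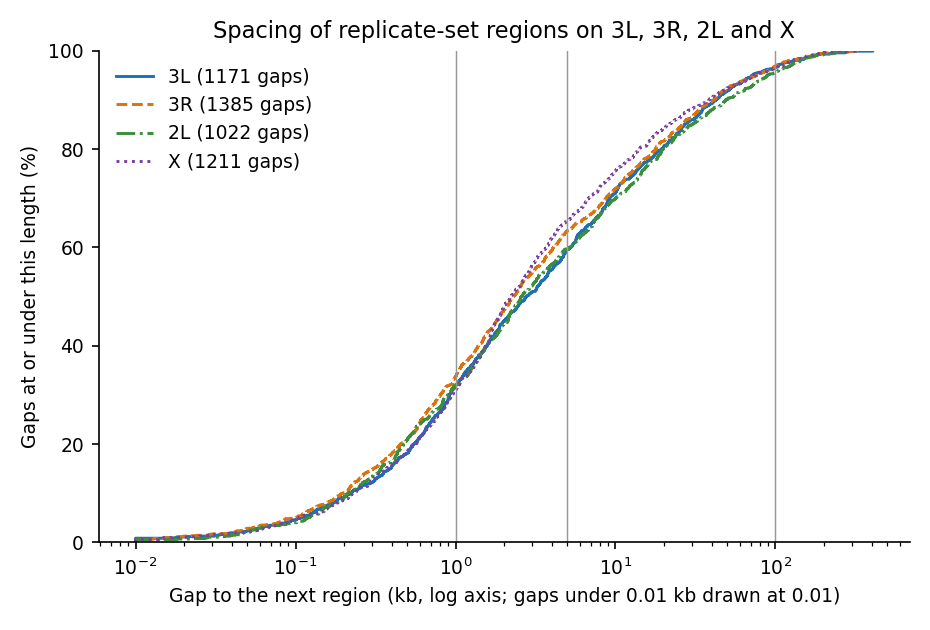
The cumulative share of gaps between neighbouring replicate-set regions is drawn against gap length in kb on a log axis for 3L, 3R, 2L and X, with grey lines at 1, 5 and 100 kb. The 3L curve passes 31.8% at 1 kb and stays close to that of 2L over most of its course, while the 3R and X curves lie above it between 2 and 10 kb.

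Joining regions across gaps under 5 kb gave 275 domains of at least 2 regions, besides 199 regions that stayed single. The domains held 973 of the 1172 regions, or 83.0%, against 83.7% over the whole series, and 82.0% of the covered length. Replicate 1 gave 263 domains and 199 single regions, and replicate 2 gave 261 and 209. The median domain spanned 18054 bp in the replicate-set list and held 3 regions. Domains of 5 regions or more numbered 55. Together the domains spanned 25.1% of the arm, and regions filled 84.3% of that span.

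Membership of a group went with little difference in the median length and score of the regions. Single regions of the replicate-set list were 4029 bp long at the median and regions in domains of 5 or more were 3773 bp long, with median scores of 0.856 and 0.824. The same median lengths were 3851 and 3710 bp in replicate 1, and 3707 and 3558 bp in replicate 2. Single regions reached 10 kb more often than regions in any domain. They did so in 25 of 199 against 82 of 948 in replicate 1, and in 27 of 209 against 87 of 913 in replicate 2. In the replicate-set list it was 33 of 199 against 118 of 973. How a list joins or splits neighbouring pieces enters both the length of a region and its membership of a domain, so this is a description. Neighbours were also nearly unrelated in strength, with a Spearman rho between the scores of successive regions of 0.019 in replicate 1 and 0.021 in replicate 2. For lengths it was 0.042 and 0.015. A region's score thus told little of the score of the next one.

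The largest domain of the replicate-set list lay close to the telomere. It ran from 3L 168099 to 337939, a span of 169.8 kb with 23 regions that filled 82.0% of it. In replicate 1 the same interval held 25 regions filling 79.0%, and in replicate 2 25 regions filling 77.9%. Replicate 1 had no domain longer than 146406 bp, so the interval was not 1 domain in that list. Its regions measured 1.47 to 14.04 kb, so it was built from many regions of ordinary size, with scores of 0.255 to 2.28. The second domain, 3L 3143404 to 3239675, spanned 96.3 kb with 14 regions and was filled over 77.8% in replicate 1 and 79.5% in replicate 2. The fourth, 3L 23200244 to 23282373 near the centromere, was of another make. It spanned 82.1 kb with only 3 regions of 14.8 to 40.7 kb and was filled over at least 94.9% in each replicate. Its lowest score was 1.69.

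The other domains named by span or number were intermediate. The third by span, 3L 16052957 to 16137982, spanned 85.0 kb with 8 regions, filled over 86.6% in replicate 1 and 86.1% in replicate 2. The domain 3L 4151122 to 4226120 held 11 regions and was filled over 63.5% and 62.4%, the loosest of those named. The domain 3L 8922679 to 8995392 held 12 regions over 72.7 kb. The domain 3L 1512576 to 1576559 held 9 regions over 64.0 kb and was filled over 89.9% and 86.3%.

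Covered share was uneven along the arm, often between adjacent windows. Over 49 windows of 500 kb the median of the covered share, averaged over replicates, was 21.8%, with extremes of 4.27% and 49.9%. In no window did the replicates differ by more than 2.33 percentage points. The most covered window was 3L 1500001 to 2000000, with 50.5% and 49.4% in replicates 1 and 2. Second was 3L 19500001 to 20000000, with 45.1% and 44.1%. The next were 3L 8000001 to 8500000 with 40.0% and 38.9%, 3L 23000001 to 23500000 with 38.9% in each, and 3L 3000001 to 3500000 with 38.7% and 39.0%. These 5 windows came from both the telomere side and the centromere side of the arm, but none lay between 3L 8500000 and 19500001.

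The least covered window, 3L 18000001 to 18500000, had 3.93% in replicate 1 and 4.61% in replicate 2. The window 3L 10000001 to 10500000 had 4.77% and 3.78%, so that the replicates put these 2 windows in opposite order. Next were 3L 5000001 to 5500000 with 8.59% and 8.46%, 3L 10500001 to 11000000 with 9.69% and 9.10%, and 3L 4500001 to 5000000 with 11.3% and 10.8%. The low windows thus included 2 pairs of neighbours.

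**Figure D3:**
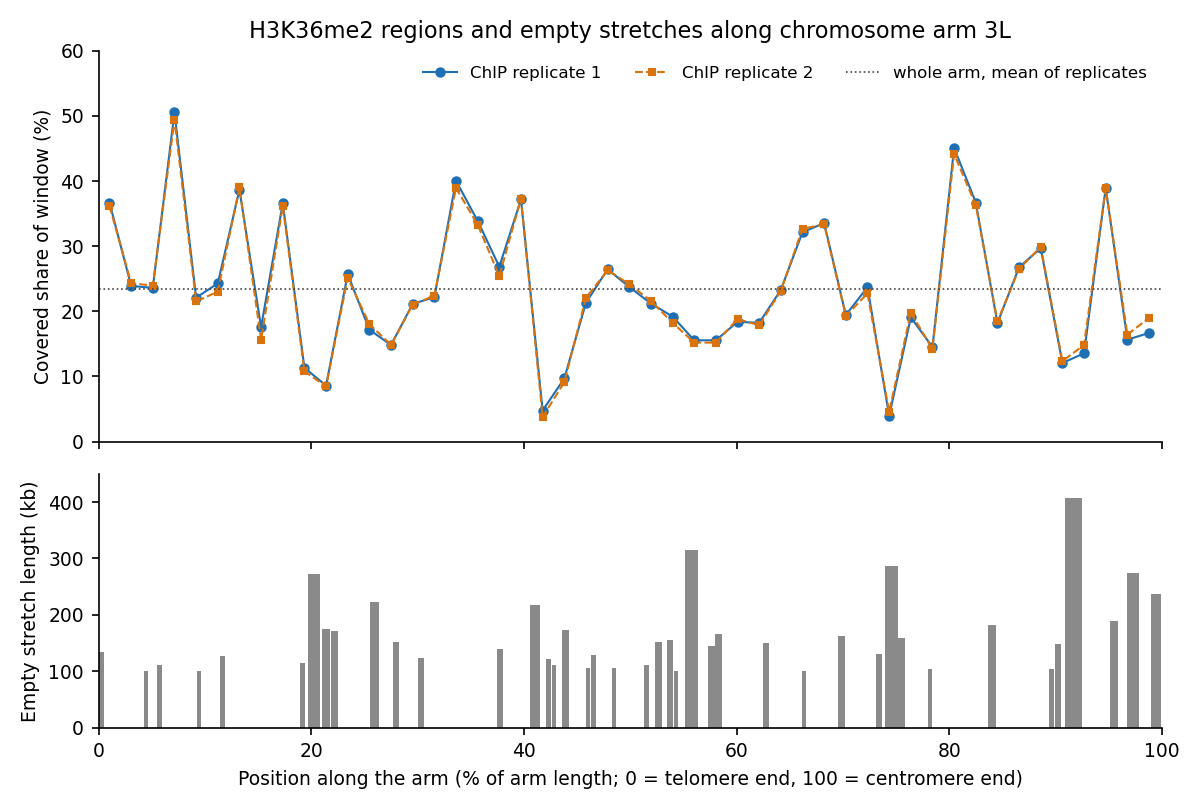
The upper panel shows the share of each 500 kb window covered by regions, in percent, for ChIP replicates 1 and 2, and the dotted line is the whole-arm mean of 23.4%. The lower panel shows the 41 stretches of 100 kb or longer without a region in any list, each bar as wide as its stretch and as high as its length in kb; position runs from the telomere end to the centromere end in percent of the arm. The replicate lines nearly coincide, and the tallest bar, 406 kb, stands at 91.7% of the arm.

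Windows differed in covered share more by how many regions they held than by how long the regions were. Across the 49 windows the Spearman rho of covered share with the number of regions was 0.859 in replicate 1 and 0.850 in replicate 2. With the median region length it was 0.438 and 0.382, and with the median score 0.430 and 0.282. These are descriptions, since number and length both enter the covered share. The number of regions per window ran from 4 to 46 in replicate 1 and from 5 to 45 in replicate 2. Divided into 10 equal bins from the telomere, the arm showed the same tendency with exceptions. Bin 1 had 142 regions in each replicate and was covered over 31.2% ± 0.16 (SD, n = 2). Bin 4 had 139 and 134 regions over 30.9% ± 0.38, and bin 9 had 151 and 147 regions over 29.1% ± 0.019. Bin 3 had 89 and 87 regions over 17.2%, and bin 10 had 73 and 74 regions over 20.1% ± 0.62. Bin 10 thus had the fewest regions but more cover than bin 3, and bin 9 had the most regions but less cover than bins 1 and 4. Median lengths in the bins lay between 3028 and 4240 bp.

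**Figure D4:**
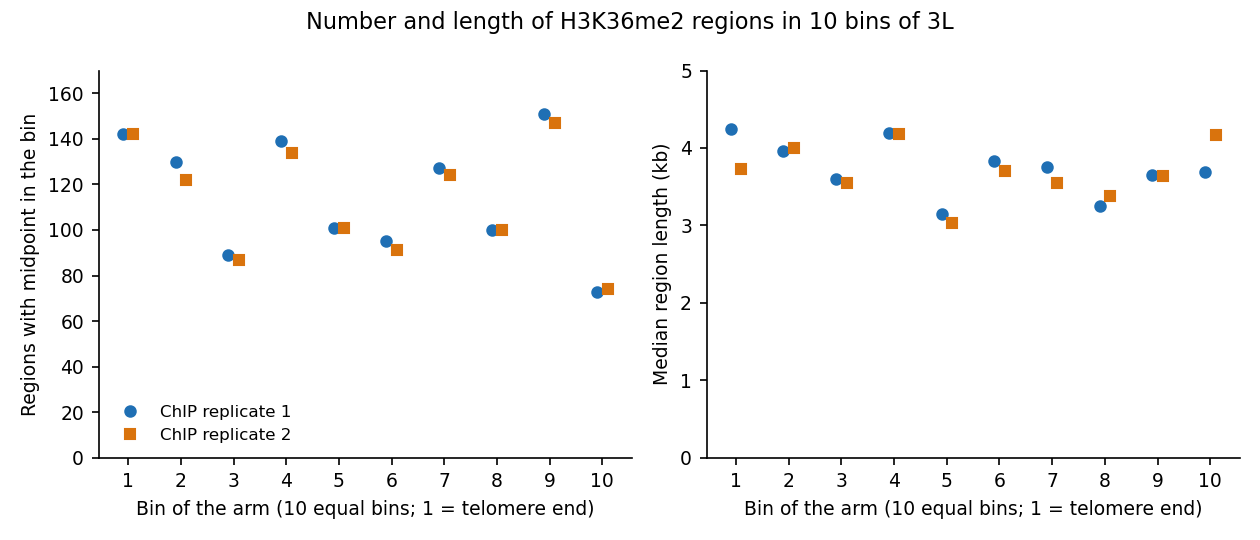
The left panel gives the number of regions with their midpoint in each of 10 equal bins of 3L, counted from the telomere end, and the right panel gives their median length in kb, with 1 point for each ChIP replicate. Counts range from 73 to 151, whereas median lengths stay between 3028 and 4240 bp.

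Cut at its midpoint, at 12271778, the arm was somewhat more covered on the telomere side than on the centromere side. The telomere side had 24.8% in replicate 1 and 24.4% in replicate 2, and the centromere side had 22.1% and 22.2%. The ratio of the sides was 1.12 and 1.10, a mean of 1.11 ± 0.016 (SD, n = 2), and both replicates were above 1. In 4 equal bins from the telomere, covered shares were 26.2% ± 0.32, 23.0% ± 0.19, 20.6% ± 0.076 and 23.7% ± 0.24 (SD, n = 2 each). The third bin was the lowest in both replicates, so the decline did not continue to the centromere. On 2L, another left arm with its telomere at the low-coordinate end, the same ratio of sides was 1.39 ± 0.0066 (SD, n = 2), above that of 3L. The ratio of the lower- to the higher-coordinate side was 1.03 ± 0.015 on X, below 1.11, and 1.01 ± 0.0021 on 3R. The low-coordinate end of 3R is the centromere end, so its ratio runs opposite to that of 3L. On 3R the centromere side was thus very slightly the more covered.

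Long stretches without any region made up 27.3% of the arm. No enriched region of any of the 3 lists touched 41 stretches of 100 kb or longer, which summed to 6.69 Mb and had a median of 149 kb. Over 4 equal bins from the telomere there were 9, 11, 12 and 9 of them. The longest, 3L 22302563 to 22708830, measured 406 kb. It was bordered on the telomere side by the 32.2 kb region with a score of 2.06 and on the centromere side by a 1.70 kb region with a score of 0.266. It thus began at one of the longest regions of the arm and ended at one of the weaker ones.

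The second stretch, 3L 13533452 to 13848296 at 315 kb, lay between regions of 2.59 and 7.56 kb, with scores of 0.524 and 0.781. The third, 3L 18164091 to 18450567 at 286 kb, filled most of the least covered window. The fourth, 3L 23747277 to 24021968 at 275 kb, and the sixth, 3L 24294014 to 24530351 at 236 kb, lay in the last part of the arm. The fifth, 3L 4833281 to 5104911, measured 272 kb. With the stretches 3L 5160661 to 5336508 at 176 kb and 3L 5359148 to 5531189 at 172 kb it formed a series broken by few regions, among them the isolated 33.5 kb region. These 2 additions rank 11 and 13 by length, and they were picked once their values were known.

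The following places complete the 10 longest stretches. They were 3L 6254909 to 6476967 (222 kb), 3L 9965458 to 10182850 (217 kb), 3L 23341815 to 23530469 (189 kb) and 3L 20523605 to 20706072 (182 kb). Replicate-set regions that bordered the 41 stretches numbered 76 and were weaker than the other regions. Their median length was 3259 bp, against 3894 bp for the other 1096, and their median score was 0.653 against 0.861. Of the 76, 5 reached 10 kb (6.58%), against 146 of the others (13.3%). Overlap with both replicates was 78.9% and 83.9%, respectively. In addition, 63 regions had at least 20 kb free on either side, with medians of 3549 bp and 0.803. Of these, 50 were found in both replicates (79.4%), against 83.5% of all regions of 3L and 81.5% of the series.

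The centromere end of 3L runs into pericentromeric heterochromatin in this assembly. It had a larger part of its cover in long regions, and of its sequence in long empty stretches, than the rest of the arm. This division at the longest empty stretch was chosen after its values were seen. Beyond the 406 kb stretch lay 1.83 Mb with 74 replicate-set regions, 68 regions in replicate 1 and 67 in replicate 2. Covered share there was 23.4% in replicate 1 and 24.6% in replicate 2, against 23.9% and 23.6% before the stretch, so the replicates differed in which side was higher. Regions of 10 kb or longer held 56.2% and 55.9% of the covered length beyond it, against 25.7% and 27.4% before it. They were 12 of 68 regions in replicate 1 and 13 of 67 in replicate 2, or 17.6% and 19.4%, against 8.80% and 9.57% before it. Stretches of 100 kb or longer took up 38.1% of the sequence beyond it, with 3 stretches, and 25.04% before it, with 37. The 406 kb stretch itself is counted in neither part. Gaps in the assembled sequence and repeats to which reads cannot be assigned were not separated from unmarked sequence, and their part in these values was not tested.

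Within that end, 344 kb from 3L 22998126 to 23341814 was covered over 57.1% in each replicate. It held 15 replicate-set regions with a median score of 1.69, and 5 of the 25 regions of the arm that reached 20 kb. Median scores there were 1.74 in replicate 1 and 1.79 in replicate 2, against 0.983 and 0.973 for the whole arm. The block was chosen after its values were seen. At the very ends of the arm, the first region, 3L 134305 to 144119 with a score of 0.924, began after 134 kb without a region and was in 3 pieces in each replicate. The last, 3L 24530361 to 24536441, was 6.08 kb long with a score of 1.96 and scored 1.88 in replicate 1 and 2.14 in replicate 2. It ended 7.12 kb from the end of the sequence and stood alone behind 236 kb without a region.

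The arm was compared with 3R, 2L and X, and 2R was not used in this comparison. In covered share, 3L lay between 3R and 2L. With 23.4% ± 0.087 it was below 3R at 25.3% ± 0.25 and above 2L at 22.5% ± 0.060 (SD, n = 2 each). The ratio to 3R was 0.919 in replicate 1 and 0.928 in replicate 2, and the ratio to 2L was 1.04 in both. Each of these differences was larger than the spread between replicates. Whether that spread includes variation between fly collections is not known from the labels. The ratio to X was 1.04 in replicate 1 and 1.00 in replicate 2, a mean of 1.02 ± 0.029 (SD, n = 2). In the replicate-set list it was 0.988, so 3L and X were not separated. No permutation of 2 samples of 1 group can give a p-value for these ratios, and none was computed.

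Regions on 3L were slightly shorter than those on 3R and of nearly the same length as those on 2L. The ratio of median lengths to 3R was 0.984 in replicate 1 and 0.964 in replicate 2, and that to 2L was 1.00 in both. Regions of 10 kb or longer held 28.0% and 29.7% of the covered length on 3L, against 32.2% and 33.5% on 3R and 30.7% and 30.4% on 2L. Median scores were 0.983 and 0.973 on 3L and 0.984 and 0.974 on 3R, in replicates 1 and 2. Against X, regions on 3L were longer, with a ratio of 1.17 in replicate 1 and 1.07 in replicate 2, and had lower scores, with a ratio of 0.918 and 0.902. In the replicate-set list the median scores were closer, with 0.851 on 3L and 0.874 on X. The 5th percentile of the scores was 0.365 and 0.361 on 3L, against 0.505 and 0.472 on X, in replicates 1 and 2. Close spacing was less frequent on 3L than on 3R, and near that on 2L. Gaps under 1 kb were 27.5% and 27.0% of gaps on 3L and 31.0% and 32.2% on 3R. They were 27.5% and 27.7% on 2L and 23.5% and 27.3% on X. In the replicate-set list they were 31.8% on 3L, 33.6% on 3R, 32.0% on 2L and 31.0% on X. Regions numbered 46.2 ± 0.72 per Mb on 3L against 48.3 ± 0.84 on 3R (SD, n = 2 each). On 2L they numbered 43.6 ± 0.031 and on X 50.0 ± 0.57. Stretches of 100 kb or longer without a region took up 27.3% of 3L, 24.0% of 3R, 29.5% of 2L and 27.9% of X. The longest of them on 3L, 406 kb, compares with 324 kb on 3R, 266 kb on 2L and 316 kb on X. Within each replicate list, however, the longest gap of 2L was 398593 and 398628 bp, close to the 406394 and 406531 bp of 3L. The largest domains of 3L spanned 146406 and 169805 bp in replicates 1 and 2, and those of 3R 155483 and 155622 bp, so the order of these arms differed between replicates. On 2L it spanned 95659 and 95758 bp, and on X 99301 and 105404 bp.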

How the data were processed

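The authors deposited 3 lists of regions, 1 per ChIP replicate and 1 for the replicate set. Coordinates are FlyBase release 5, per the file headers, and the submitters' processing notes name Bowtie 0.12.7. No source used here gives the region caller, its threshold or how replicates were combined. The score per region was deposited by the authors with no stated scale. It was above 0 in enriched rows of 3L and was used only to describe and rank regions and to keep the higher-scoring 50%. Lengths of sequences are those in the headers.

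Overlaps of at least 1 bp, gaps, domains (gaps under 5 kb), empty stretches and windows were computed in Python 3.11.15 (SciPy 1.17.1, pandas 2.3.3, NumPy 2.4.6), and the interval functions were tested on 50 simulated pairs of lists. A last window of under 250 kb was left out. Values over replicates are mean ± SD of the 2 ChIP lists, with no test. Named were the 10 longest and 10 highest-scoring regions, the 10 longest empty stretches, the 5 largest domains, the 5 most and least covered windows, unshared regions, regions in most pieces, the arm's first and last region and depleted rows. The regions, rules and thresholds were chosen with earlier results of these data known. Gene annotation of release 5 was not analysed here.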

Additional observations from a re-analysis of the deposited data

How the results depend on the processing

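Of 58 alternatives over 14 results, 18 left out a replicate and, with 2 replicates, lie within 1 SD of the mean by construction. Of the other 40, 14 left a count within 1.5 times or a value within its SD or interval, 26 moved it further and 0 reversed a call, since no test was made. The replicate-set list gave a covered share of 25.8%, a ratio of 0.988 to X, a range of 48.4 percentage points over windows (46.1 in the mean of replicates), 30.3% of the length in the longest 10% of regions, a median length of 3859 bp and a rho of 0.813. The higher-scoring 50% of regions, which removes covered length by construction, gave 16.6% covered, ratios of 0.908 to 3R, 1.06 to 2L and 0.954 to X, 1.15 between the telomere and centromere sides, a range of 37.1, 25.8% in that longest 10%, a median of 5889 bp, 584 regions and 134 domains. The ratio to X thus lay on either side of 1. Joining regions closer than 1 kb gave 23.9%, 31.1% in that longest 10%, 5002 bp, a rho of 0.700 and, by construction, 0% of gaps under 1 kb. Measuring from the first to the last region gave 23.5% and 1.04 to 2L. Windows of 250 and 1000 kb gave ranges of 57.7 and 30.0, and 96 stretches reached 50 kb. Where no construction is named, the cause was not tested. The replicate-set list was not rebuilt without a replicate. No paired analysis was possible because the ChIP samples are 1 group and the inputs have no values here to pair them with. Depth is unknown, so a region missing from a list may lie under its threshold.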

Other observations

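The highest score of the replicate-set list on 3L, 2.95, belonged to 3L 7918057 to 7919057, which at 1001 bp was also among the shortest regions of the arm. Neither replicate list has a region there. It stood 9.32 kb after one region and 2.06 kb before the next. The next highest scores among regions of 1300 bp or shorter were 2.02 at 3L 24096142 to 24097440 and 1.52 at 3L 24206893 to 24208042, and both were again in neither replicate list. The median score of the 72 regions of that size was 0.344, and 3 of them scored 1 or more. Neither list held 67 of them (93.1%), against 349 of 372 (93.8%) over the whole series. Those 372 were 5.80% of the series, and 23 of them scored 1 or more. The shortest region on 3L was 1315 bp long in replicate 1 and 1306 bp in replicate 2, so a region of about 1 kb had no counterpart of its size in those lists. The part of that difference in these values was not tested.

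Both rows of 3L that the replicate-set list names as depleted carried scores near 0. The row 3L 15801913 to 15803388 had a score of -0.037. It was covered over 93.8% by a region of replicate 1 named as enriched, with a score of 0.153, and over 96.7% by one of replicate 2, with 0.055. The row 3L 18099505 to 18100931 had a score of -0.031. It was covered over 97.8% by a replicate 2 region named as enriched, with a score of 0.126, and by none of replicate 1. The lists therefore contradicted each other at both positions.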
